A study of Mus musculus with 34 samples.

Results

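Cytosolic ribosomal protein genes encode the proteins of the ribosome that translates nuclear-encoded mRNA, and their transcripts were followed here in skeletal muscle of mice lacking insulin and IGF-1 receptors. The members were chosen by name: protein-coding genes whose symbol begins with Rpl or Rps and a digit, with Rpsa and the stalk genes Rplp0, Rplp1 and Rplp2, and without the Rps6k kinases and pseudogenes. Of 46071 gene rows in the count table, 86 met this rule, and 82 of those passed the filter on low counts, 49 with Rpl symbols and 33 with Rps symbols (Rps19bp1 among the 33). The rule uses names alone, though it was set with earlier results of these data known. By class, 77 of the 86 were canonical subunits, 8 were paralogs of a subunit, and 1, Rps19bp1, encodes a protein that binds Rps19. The 4 that did not pass were Rpl23a, with at most 10 counts in a library, and the paralogs Rps27rt, Rpl39l and Rpl10l, the last of which had 0 counts in every library. Fau and Rack1, which also encode ribosomal proteins but fall outside the naming rule, were followed beside them.

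A ribosome holds a small subunit, which reads the mRNA, and a large subunit, which forms the peptide bond, and cells make their proteins in matched amounts. Many of these mRNAs start with a run of pyrimidines at the cap, the terminal oligopyrimidine (TOP) tract, through which mTORC1 and the protein Larp1 raise or lower their translation when insulin or nutrients change. Muscle has a ribosomal paralog of its own: Rpl3l, made in skeletal muscle and heart, stands in for Rpl3, a protein near the peptidyl transferase centre, and in mouse muscle the balance between them is known to move toward Rpl3 during overload growth.

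RNA came from male mice, from quadriceps powdered together with gastrocnemius, and was sequenced in 34 libraries of 8 groups from 4 separately kept colonies. The MIRKO group (4 libraries) lacks the insulin receptor gene Insr in muscle and was set against IRlox mice (3). The MIGF1RKO group (5) lacks the IGF-1 receptor gene Igf1r and was set against IGFRlox mice (4). The MIGIRKO group (6) lacks both receptors and was set against IRIGFRlox mice (3). The QKO group (7) lacks both receptors and the transcription factors FoxO1, FoxO3 and FoxO4 and was set against Qlox mice (2). The floxed groups are littermates of their colony with unrecombined alleles. Cre was driven by the Acta1 promoter, active in muscle fibers, in MIRKO, MIGIRKO and QKO mice, and the series text does not name the driver for MIGF1RKO. Every mouse had a mixed background of C57Blk6, C57Blk6J and 129 strains. By the series text the MIGIRKO and IRIGFRlox mice were heterozygous for Nnt, and the MIRKO, IRlox, QKO and Qlox mice were a mixture of homozygotes and heterozygotes. Ages are not given in the labels. Because the tissue is whole muscle, fewer cells of a type and less RNA per cell cannot be told apart.

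Libraries held 1499025 to 7581198 counts, and the 86 members together took 0.359% to 0.903% of them. Muscle fiber markers were abundant in every library. Insr fell to between 40.7 and 69.8 scaled CPM (counts relative to the library total after trimmed-mean scaling) in MIGIRKO muscle, against 159 to 191 in IRIGFRlox muscle, and it fell likewise in MIRKO and QKO muscle. Igf1r, however, stood at 15.1 to 25.7 scaled CPM in MIGIRKO muscle, against 16.5 to 20.3 in IRIGFRlox muscle, with a log2 change of 0.00 ± 0.21 (edgeR adjusted p = 0.993), so that the deletion of Igf1r was not seen in the gene's total count there. Igf1r was at 7.57 to 11.2 scaled CPM in MIGF1RKO muscle, against 13.5 to 20.4 in IGFRlox muscle, without overlap but also without passing the test (-0.75 ± 0.21, edgeR adjusted p = 0.103). It fell in QKO muscle, to 4.01 to 11.9 scaled CPM, against 16.7 to 18.6 in Qlox muscle (-1.09 ± 0.25, edgeR adjusted p = 0.0267). QKO and MIGIRKO muscle also differed in Igf1r (-1.17 ± 0.18, edgeR adjusted p = 7.29e-06). Foxo1 and Foxo4 fell in QKO muscle, to 12.6 to 28.3 and 5.08 to 10.2 scaled CPM, against 132 to 148 and 144 to 160 in Qlox muscle, and Foxo3 did not pass the test (log2 change 0.29 ± 0.27, edgeR adjusted p = 0.71). By correlation across genes (not replicates of one another), 14 of the 34 libraries were nearest to a library of another group. The gap to their own group was widest for the library labelled MIRKO 4, nearest to a MIGIRKO library, the library labelled MIGIRKO 6, nearest to a MIRKO library, and QKO 6, nearest to MIGIRKO 6. Some of the results below are also given without these libraries. The library numbers in the labels fall into 6 runs of consecutive numbers, which the labels do not call batches. The mean log2 level of the 82 members was 4.73 and 4.94 in runs 4 and 5 and between 5.48 and 5.64 in the other 4 runs. Both Qlox libraries belong to runs 4 and 5. No IRlox or IRIGFRlox library belongs to them, while MIRKO 2, MIRKO 3, MIGIRKO 4 and MIGIRKO 5 do. The comparisons of MIRKO and MIGIRKO with their floxed groups are therefore also unbalanced by run.

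The start regions of the called genes other than Rpl3, with that of Rps6, whose protein is the best known substrate of the S6 kinases, show what the pyrimidine tract looks like and how variable it is. Each sequence is the sense strand from 50 bases before to 20 bases after a RefSeq start of the gene (build GRCm38.p6; the first listed, and both for Rpl34), 5′ to 3′, and the capitals mark the longest run of C or T that lies within 20 bases either side of the start.
Rpl3l, chr17:24727776-24727845, plus strand: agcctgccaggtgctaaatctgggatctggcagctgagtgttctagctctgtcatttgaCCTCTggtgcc
Rps24, chr14:24490628-24490697, plus strand: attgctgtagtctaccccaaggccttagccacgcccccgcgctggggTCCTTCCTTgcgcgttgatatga
Rpl36a, chrX:134585604-134585673, plus strand: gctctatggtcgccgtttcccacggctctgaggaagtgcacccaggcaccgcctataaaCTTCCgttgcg
Rps3a1, chr3:86142649-86142718, minus strand: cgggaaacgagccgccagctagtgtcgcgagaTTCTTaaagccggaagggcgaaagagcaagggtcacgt
Rpl34, chr3:130730379-130730448, minus strand: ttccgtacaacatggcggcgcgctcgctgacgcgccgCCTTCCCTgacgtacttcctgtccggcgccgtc
Rpl34 second start, chr3:130730318-130730387, minus strand: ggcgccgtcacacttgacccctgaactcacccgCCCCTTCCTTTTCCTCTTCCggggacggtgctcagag
Rps6, chr4:86857348-86857417, minus strand: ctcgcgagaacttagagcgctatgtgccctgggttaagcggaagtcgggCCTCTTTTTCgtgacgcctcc
The run was 9 bases in Rps24, 8 at the first and 20 at the second Rpl34 start, and 10 in Rps6, and it spans the start itself in Rps24, in Rps6 and at the second Rpl34 start. Second starts of Rpl3l and Rps24, not shown, had longest runs of 4 and 7 bases. At the starts shown for Rpl3l, Rpl36a and Rps3a1 the longest run was 5 bases. Of the 86 members, 66 had an entry in the RefSeq promoter table, and 28 of these 66 genes (42.4%) held at least 1 run of 8 or more consecutive C or T on the sense strand in this window. Among all 27025 genes with an entry, 4300 did (15.9%). Runs of 8 or more A or G, which are pyrimidine runs on the opposite strand, were found in 6.06% of the members and in 17.3% of all genes. A run of letters at an annotated start is a description of the sequence, not a measured TOP tract.

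Muscle of the floxed mice held very unequal amounts of the 82 transcripts. On the scale of CPM per kilobase of mRNA, the highest 5 were Rps14 at 383, Rps2 at 363, Rpl4 at 248, Rplp0 at 236 and Rplp1 at 220 (means of the 12 floxed libraries). The lowest tested were Rpl24 at 1.41, Rpl29 at 3.15, Rps15a at 4.24, Rps19bp1 at 5.11 and Rpl36al at 6.05. The length was that of 1 annotated transcript per gene, which was 5179 bases for Rps15a, 3706 for Rps20 and 2989 for Rpl18. The low place of Rps15a rests on that choice, since its level before division by length was 22.0 CPM. Where reads could be placed bears on such levels: a median of 43.5% of a member's 50-base stretches recur in transcripts of other genes, and the treatment of such reads is not given in the sources used here. Rpl3l ranked 7 of 82 at 195 CPM per kilobase, while its partner Rpl3 ranked 66 at 21.3. None of the 50-base stretches of Rpl3l recur elsewhere, against 85.6% of those of Rpl3. The 274 annotated ribosomal protein pseudogenes held 0.570% to 3.22% as many counts as the members.

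**Figure D1:**
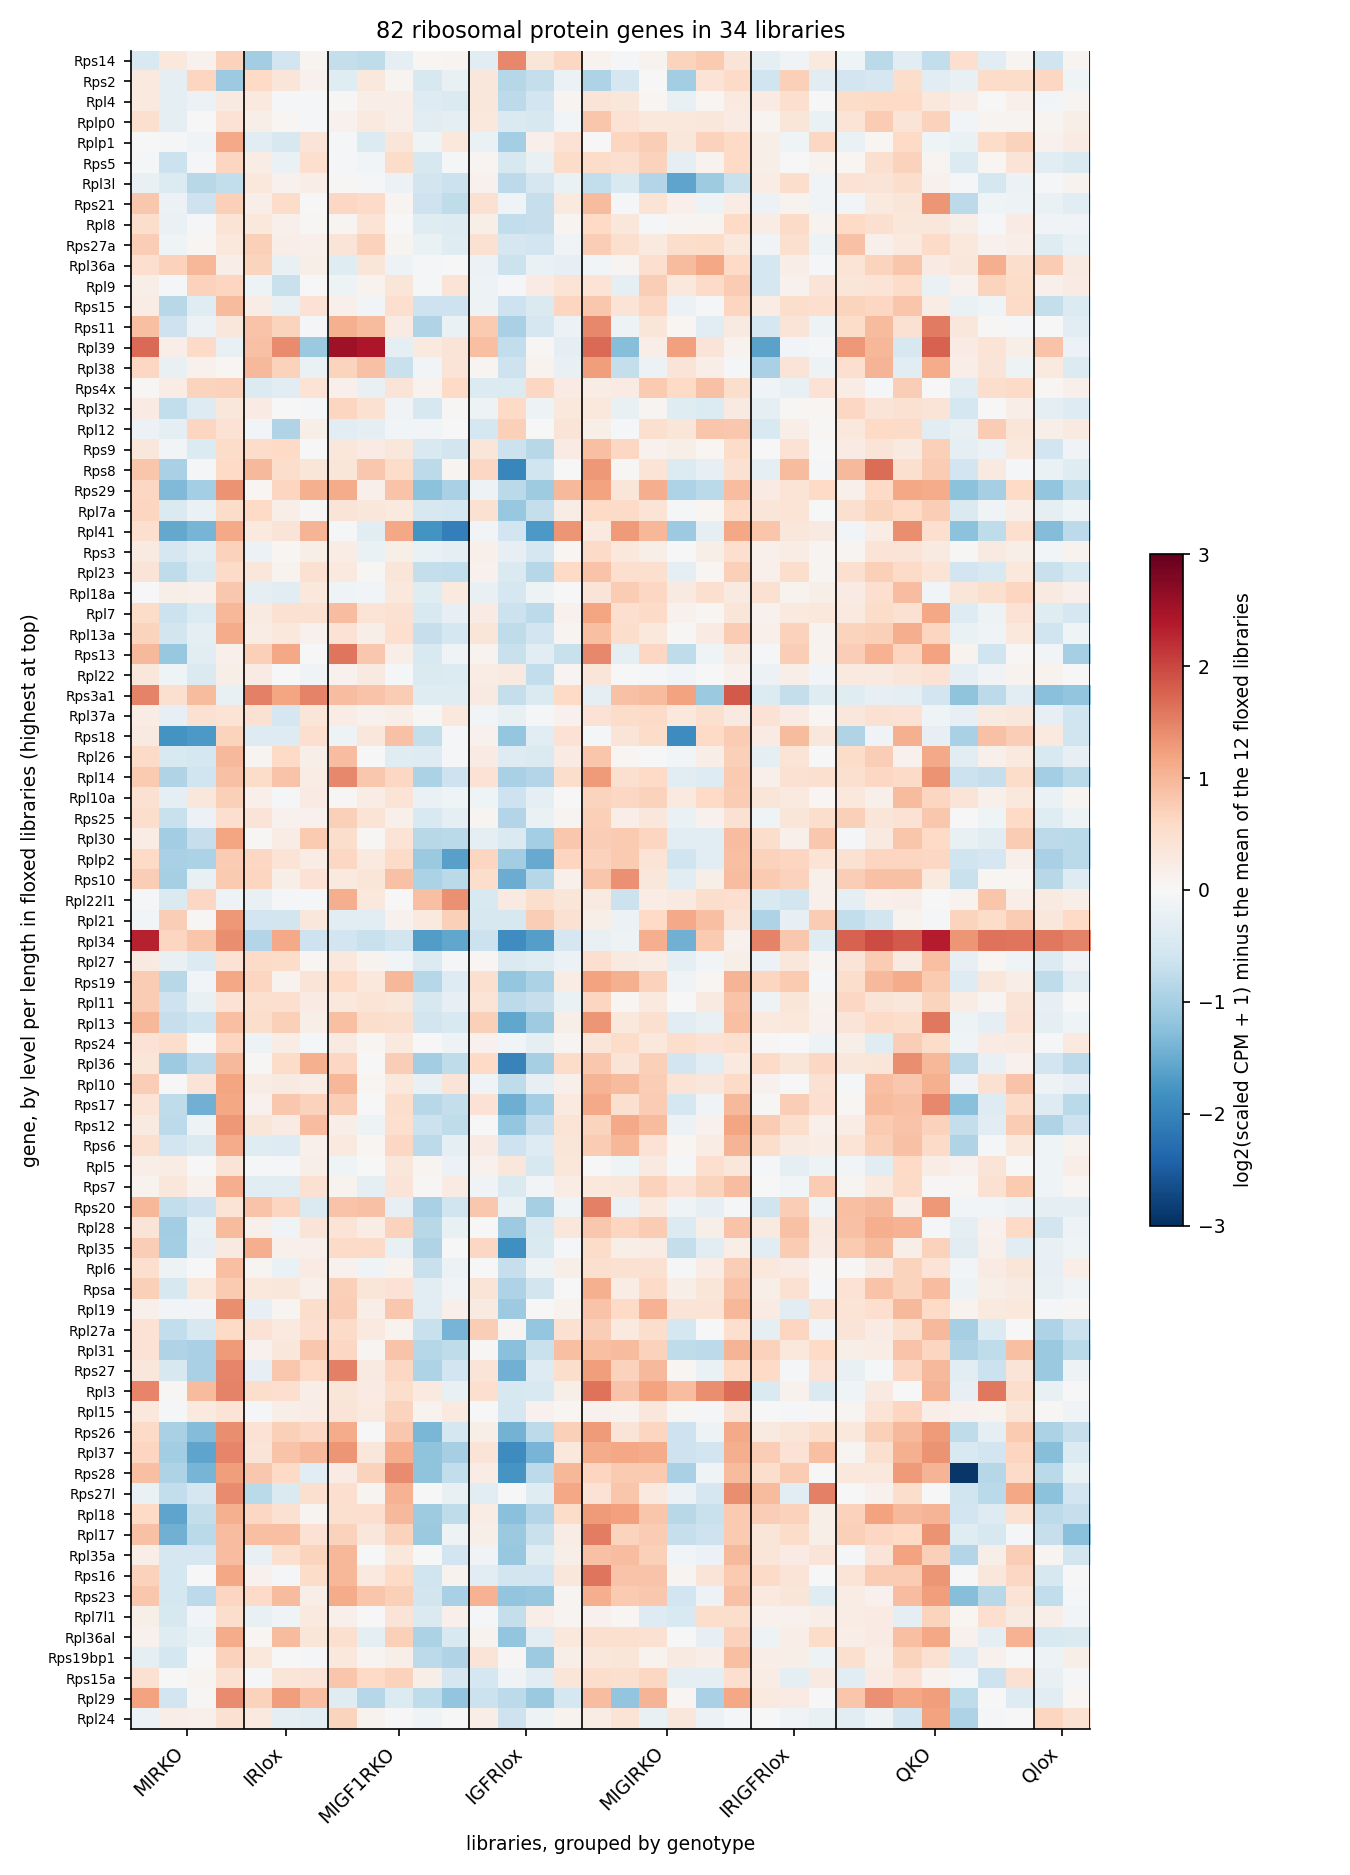
Level of the 82 tested genes (vertical axis, by CPM per kilobase in floxed muscle, highest at the top) in the 34 libraries (horizontal axis, by genotype). Colour gives log2(scaled CPM + 1) minus the mean of the 12 floxed libraries. The mean log2 level of the 82 genes ran from 4.39 to 5.90 between libraries, and Rpl34 is high in all QKO and Qlox columns.

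The genes differed as much in how they varied. Over the 34 libraries the standard deviation (SD) of log2 scaled CPM was largest for Rpl34 (1.32), Rps28 (1.19), Rpl29 (1.08), Rpl41 (1.04) and Rpl37 (1.03), and smallest for Rpl15 (0.23), Rpl5 (0.25) and Rpl22 (0.27). The median biological coefficient of variation that edgeR estimated was 0.318 for the members and 0.205 for all 13646 genes tested. The share of all counts that fell on members was 0.771% ± 0.079 in MIGIRKO libraries (SD, n = 6) and 0.487% ± 0.062 in IRIGFRlox libraries (SD, n = 3), without overlap. That share is not adjusted for the scaling factors, which were 1.17 to 1.32 in MIGIRKO libraries and 0.866 to 0.887 in IRIGFRlox libraries.

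Rpl3l and Rpl3 changed in opposite directions in muscle lacking both receptors, with the smallest adjusted p of the 82 genes. Rpl3l (ENSMUSG00000002500, GRCm38 chr17:24727820-24736143, plus strand) stood at 87.0 to 189 (median 149) scaled CPM in MIGIRKO muscle, against 305, 375 and 244 in IRIGFRlox muscle. Rpl3 (ENSMUSG00000060036, GRCm38 chr15:80077791-80091868, minus strand) stood at 50.8 to 91.2 (median 69.9) scaled CPM in MIGIRKO muscle, against 20.3, 30.6 and 20.3 in IRIGFRlox muscle. For neither gene did the MIGIRKO and IRIGFRlox libraries overlap. Rpl3l fell by 2.15-fold (log2 change -1.10 ± 0.21, SE, edgeR quasi-likelihood test, adjusted p = 0.000202) and Rpl3 rose 2.97-fold (log2 change 1.57 ± 0.35, edgeR adjusted p = 0.000971). Counted per mRNA length, Rpl3l made up 66.2% ± 6.4 of the Rpl3 and Rpl3l pool in MIGIRKO muscle (SD, n = 6), against 92.7% ± 0.8 in IRIGFRlox muscle (SD, n = 3). The log2 ratio of Rpl3l to Rpl3 differed by -2.68 in MIGIRKO against IRIGFRlox muscle, and an exact two-sided permutation test over libraries gave p = 0.0238, the smallest that 6 against 3 allow, and 0.298 after Benjamini-Hochberg adjustment over the 25 ratio tests made.

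In muscle lacking both receptors and the FoxO genes, neither gene passed the test against floxed littermates, and both differed from MIGIRKO muscle. Rpl3l was at 179.7 to 377 (median 283) scaled CPM in QKO muscle, against 249.7 and 282 in Qlox muscle. Rpl3 was at 23.2 to 84.8 (median 33.9) scaled CPM in QKO muscle, against 23.6 and 27.7 in Qlox muscle. For both genes the QKO and Qlox libraries overlapped, and neither passed the test (log2 change 0.12 ± 0.25 for Rpl3l, edgeR adjusted p = 0.898; 0.72 ± 0.40 for Rpl3, edgeR adjusted p = 0.495). Set directly against MIGIRKO muscle, Rpl3l was higher in QKO muscle (log2 change 1.01 ± 0.18, edgeR adjusted p = 4.98e-05) and Rpl3 lower (log2 change -0.74 ± 0.25, edgeR adjusted p = 0.027). QKO and MIGIRKO mice come from different colonies, so genotype and colony cannot be told apart in that comparison, and it uses the same MIGIRKO libraries as the comparison with IRIGFRlox. The library QKO 6 stood apart, with 179.7 scaled CPM of Rpl3l and 84.8 of Rpl3, both within the MIGIRKO range. Without it, Rpl3 was lower in QKO muscle by a log2 change of -1.02 (edgeR adjusted p = 0.000763). The call of Rpl3 ended without the library labelled MIGIRKO 6 (log2 change -0.65, edgeR adjusted p = 0.063), and likewise in 5 further fits that left out 1 library, MIGIRKO 1 or QKO 1, 2, 3 or 5 (highest adjusted p = 0.0672). That call also ended with no filter on low counts and with only the compared groups fitted.

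The change of Rpl3l in QKO mice relative to their own floxed mice differed from that in MIGIRKO mice relative to theirs, by a log2 value of 1.22 ± 0.34 (edgeR, interaction contrast, adjusted p = 0.0304). It was the only member of the 82 called in that contrast, in which 3.61% of all genes were called higher and 2.15% lower. The call ended in the fit blocked by run (log2 value 0.67, edgeR adjusted p = 0.11), where Rps23 was called instead (-1.61, adjusted p = 0.0397). It ended too with only the compared groups fitted (1.23, adjusted p = 0.0568), with unscaled library totals (0.77, adjusted p = 0.079), and without either Qlox library, IRIGFRlox 1 or IRIGFRlox 2 (highest adjusted p = 0.167). For Rpl3 the same difference was -0.85 ± 0.50 (edgeR adjusted p = 0.339) and did not pass. The log2 ratio of Rpl3l to Rpl3 was 1.87 higher in QKO than in MIGIRKO muscle (exact two-sided permutation p = 0.0035, 0.0874 after adjustment over the 25 tests) and 2.17 higher without QKO 6 (exact permutation test, adjusted p = 0.0541). Against Qlox muscle the ratio in QKO muscle differed by -0.48 (exact p = 0.722, where 7 against 2 allow no p under 0.0556).

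**Figure D2:**
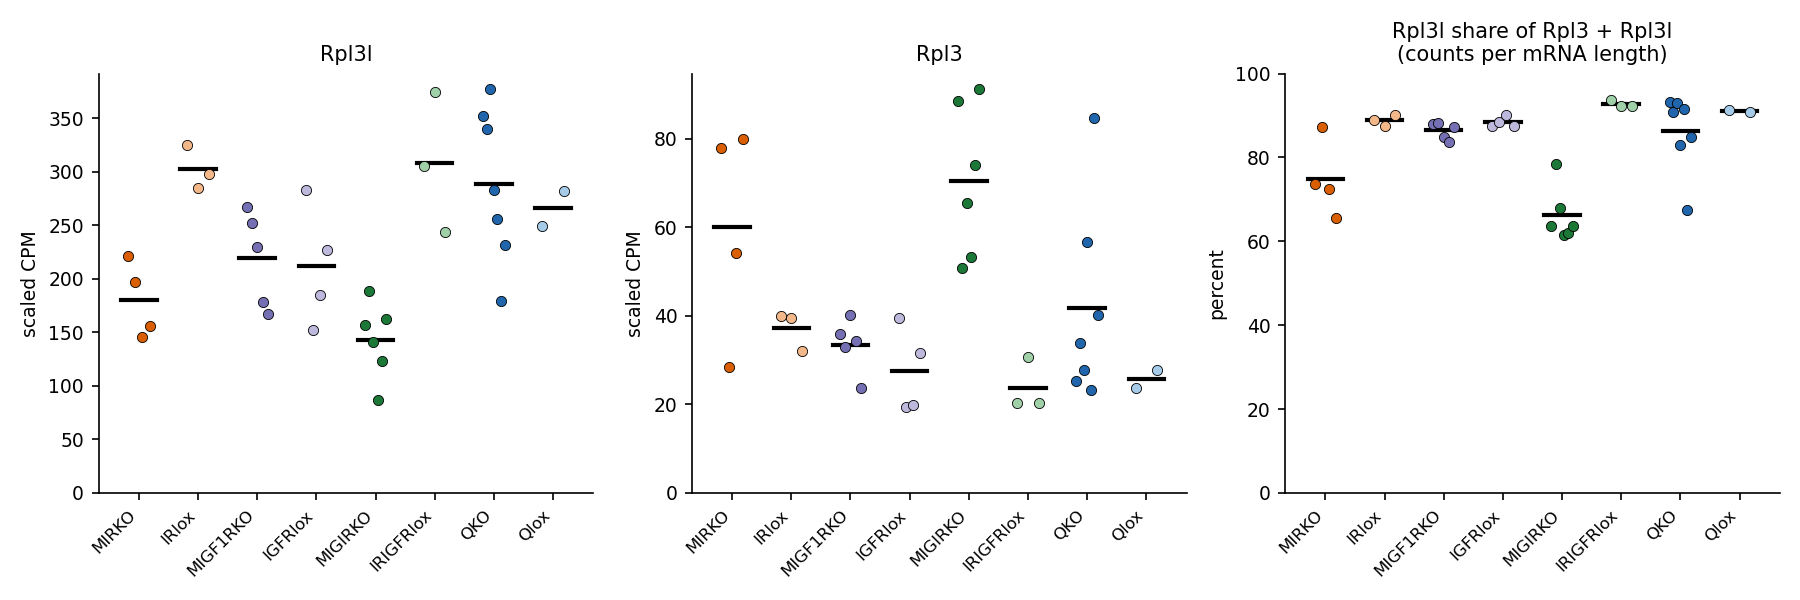
Rpl3l (left) and Rpl3 (middle) in scaled CPM, and the Rpl3l share of the Rpl3 and Rpl3l pool in percent of counts per mRNA length (right), with 1 point a library and a bar at each group's mean. The MIGIRKO shares lie between 61.6% and 78.5% and the IRIGFRlox shares between 92.2% and 93.7%, and the lowest QKO point, QKO 6, is at 67.6%. Each share is one of counts, and the treatment of reads shared between genes is not given in the sources used here.

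Where only the insulin receptor was deleted, neither gene passed the test in the fit of all libraries, and the calls depended on which libraries were compared. Rpl3l was at 222, 197, 146 and 156 scaled CPM in MIRKO muscle, against 325, 285 and 298 in IRlox muscle, and these libraries did not overlap. Rpl3 was at 78.0, 28.6, 54.3 and 80.0 scaled CPM in MIRKO muscle, against 40.1, 39.6 and 32.0 in IRlox muscle, and the second MIRKO library lay below all 3 IRlox libraries. Neither gene was called (log2 change -0.75 ± 0.24, edgeR adjusted p = 0.0985 for Rpl3l and 0.70 ± 0.36, edgeR adjusted p = 0.31 for Rpl3). The log2 ratio of Rpl3l to Rpl3 was 1.67 ± 0.78 in MIRKO muscle (SD, n = 4) and 3.02 ± 0.19 in IRlox muscle (SD, n = 3), and the exact permutation p of 0.0571 is the smallest that 4 against 3 allow. Without the libraries labelled MIRKO 4 and MIGIRKO 6 the log2 change of Rpl3 in MIRKO muscle was 0.53 (edgeR adjusted p = 0.55). Without library runs 4 and 5 it was 1.09 (adjusted p = 0.0419). With all 12 floxed libraries as control both genes were called, Rpl3 at 1.09 (edgeR adjusted p = 0.00311) and Rpl3l at -0.55 (adjusted p = 0.0308). In that setting 1632 of 13646 genes were called higher and 1395 lower. Its control pools the floxed mice of all 4 colonies, so genotype and colony are mixed in it. The MIGF1RKO and IGFRlox libraries overlapped for both genes: Rpl3l was at 268, 252, 230.0, 179 and 167 scaled CPM in MIGF1RKO muscle, against 283, 152, 185 and 227 in IGFRlox muscle, with a log2 change of 0.05 ± 0.21 (edgeR adjusted p = 0.976). Rpl3 was at 36.0, 32.9, 40.3, 34.2 and 23.7 scaled CPM in MIGF1RKO muscle, against 39.6, 19.5, 19.8 and 31.6 in IGFRlox muscle, with a log2 change of 0.29 ± 0.32 (edgeR adjusted p = 0.853). By level of Rpl3l, the groups ran, from the highest mean, IRIGFRlox, IRlox, QKO, Qlox, MIGF1RKO, IGFRlox, MIRKO and MIGIRKO. The libraries of each group overlapped with those of the next in this order.

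Markers of fibers and of other cells differed in the same comparison. The summed level of the 14 fiber markers was 61176 to 101853 scaled CPM in MIGIRKO muscle, against 169674 to 196618 in IRIGFRlox muscle, and 8 of the 14 were called lower, where 16.7% of all genes tested were called lower and 17% higher. Of markers of other cells, 8 of 8 adipocyte, 8 of 9 leukocyte, 5 of 8 Schwann cell, 4 of 8 fibroblast and 2 of 6 satellite cell genes were called higher in MIGIRKO muscle, and 1 of 8 endothelial genes was called lower. Of 5 red blood cell genes, edgeR, DESeq2 and limma-voom called 0, with 0 at an unadjusted p under 0.05. Their summed levels in MIGIRKO muscle were 404 to 1378 scaled CPM for adipocyte markers, against 168 to 185 in IRIGFRlox muscle, and 557 to 1554 for leukocyte markers, against 167 to 247. Of the defining markers, none of the fiber list was at 0 in any library, and among leukocyte markers Cd79a was at 0 in 25 libraries. The part of these markers in the change of Rpl3l and Rpl3 was not tested. In QKO muscle the leukocyte markers summed to 248 to 2885 scaled CPM (median 389.8), against 185 and 239 in Qlox muscle. Of single markers, QKO 6 held the most Cd74, a leukocyte gene, of the 7 QKO libraries (251 scaled CPM) and the least Ckm, a fiber gene (6079).

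In the whole set, 5 members were called in MIGIRKO muscle. Of 82 tested, 4 rose (Rpl3, Rps3a1, Rps24 and Rpl36a), where 17% of all genes tested were called higher, and 1 fell (Rpl3l), where 16.7% of all genes were called lower. At an unadjusted p under 0.05 the counts were 5 and 1. The median log2 change of the 82 was 0.24, beside 0.04 over all genes, and 68 of the 82 lay above 0. The 49 genes with Rpl symbols had a median of 0.19 and the 33 with Rps symbols, Rps19bp1 included, a median of 0.25. Among the members that were not called, the highest and lowest values were 1.12 ± 0.70 for Rpl39 and -0.64 ± 0.47 for Rpl34 (SE).

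This count depended on how libraries were compared. With library runs as a block, 22 members were called higher and 1 lower in MIGIRKO muscle, beside 16.6% and 17.5% of all genes, and the median was 0.44. Of the 5 calls made without the block, 4 were shared, and that of Rpl36a was lost. Members called higher with the block included the stalk gene Rplp0 (0.49, edgeR adjusted p = 0.00624), Rpl19 (0.74, 0.00639), Rps23 (0.93, 0.00659) and Rps6 (0.53, 0.0261). With unscaled library totals 33 were called higher and 1 lower, beside 46.3% and 5.04% of all genes, and the median of all genes itself moved to 0.53 and that of the members to 0.71. Without runs 4 and 5, which leaves 4 MIGIRKO libraries, 9 members were called higher and 1 lower, beside 2039 and 1934 of 13479 genes. Without the libraries labelled MIRKO 4 and MIGIRKO 6, the same 5 genes were called, beside 2176 of 13466 genes higher and 2336 lower. In the 3 runs that hold 1 MIGIRKO and 1 IRIGFRlox library each, the median log2 difference of the members was 0.55, 0.07 and 0.46, and Rpl3l was lower and Rpl3 higher in MIGIRKO muscle in all 3.

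**Figure D3:**
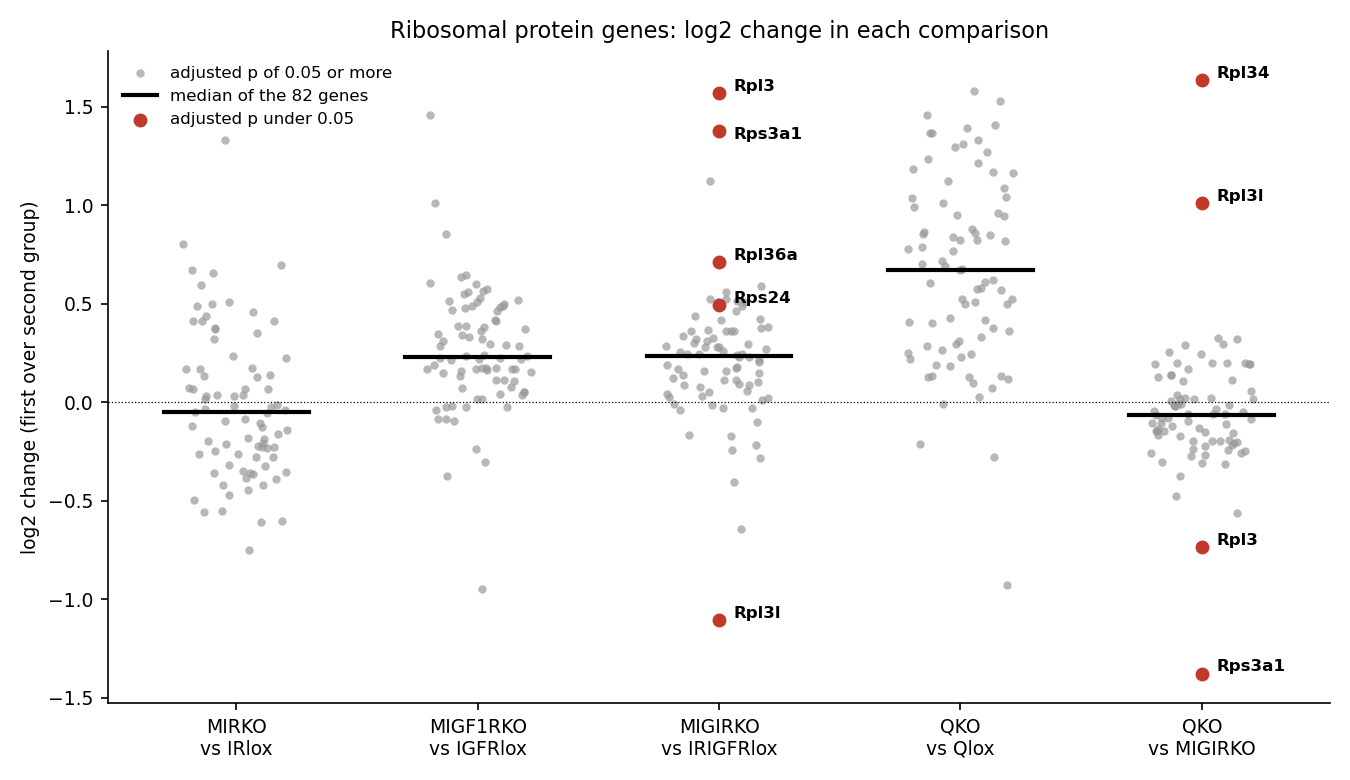
Fitted log2 change of each of the 82 genes (points) in the 5 comparisons, first group over second, with a bar at the median. Called genes are red and named. The bar stands highest in QKO against Qlox, at 0.67, where no gene was called; the MIGIRKO libraries serve in 2 of the comparisons.

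Besides Rpl3, the genes that rose in MIGIRKO muscle were Rps3a1, Rps24 and Rpl36a, and each lost its call without some single library. With no filter on low counts Rps3a1, Rps24 and Rpl36a all lost their calls, as did Rps3a1 and Rpl36a with only the compared groups fitted. Rps3a1 (ENSMUSG00000028081, GRCm38 chr3:86137940-86142702, minus strand), a small subunit protein near the mRNA exit, was at 17.2 to 138 (median 72.5) scaled CPM in MIGIRKO muscle, against 28.4, 23.0 and 29.7 in IRIGFRlox muscle. The MIGIRKO libraries lay on both sides of the IRIGFRlox libraries, and the log2 change was 1.38 ± 0.45 (edgeR adjusted p = 0.0203). Its call ended under limma-voom (adjusted p = 0.072) and without any 1 of the 3 IRIGFRlox libraries or MIGIRKO 6 (highest adjusted p = 0.0789). Rps24 (ENSMUSG00000025290, GRCm38 chr14:24487125-24496959, plus strand), a small subunit protein, was at 66.3 to 78.2 (median 73.2) scaled CPM in MIGIRKO muscle, against 54.3, 52.8 and 47.5 in IRIGFRlox muscle. These libraries did not overlap, and the log2 change was 0.49 ± 0.17 (edgeR adjusted p = 0.024), lost without any 1 of the IRIGFRlox libraries (highest adjusted p = 0.099). Rpl36a (ENSMUSG00000079435, GRCm38 chrX:134585654-134588062, plus strand), an X-linked large subunit gene, was at 60.6 to 145 (median 94.8) scaled CPM in MIGIRKO muscle, against 44.3, 74.0 and 62.2 in IRIGFRlox muscle. These libraries overlapped, and the log2 change of 0.71 ± 0.24 (edgeR adjusted p = 0.0246) was lost without IRIGFRlox 1, IRIGFRlox 3, MIGIRKO 4 or MIGIRKO 5 (highest adjusted p = 0.163). Of their 50-base stretches, 71.0% of Rps3a1, 19.1% of Rps24 and 85.5% of Rpl36a recur in transcripts of other genes.

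Rpl34 and Rps3a1 differed between QKO and MIGIRKO muscle, and their levels also differed between the floxed groups, which was not tested. Rpl34 (ENSMUSG00000062006, GRCm38 chr3:130726831-130730398, minus strand), a large subunit protein, was at 40.7 to 83.5 (median 55.9) scaled CPM in QKO muscle, against 5.16 to 34.5 (median 15.6) in MIGIRKO muscle, without overlap (log2 change 1.63 ± 0.39, edgeR adjusted p = 0.00184). The Qlox libraries, at 48.9 and 45.4 scaled CPM, lay within the QKO range, and the change in QKO against Qlox muscle was 0.29 ± 0.54 (edgeR adjusted p = 0.88). The other floxed groups held 8.07, 35.8 and 9.80 scaled CPM in IRlox muscle, 9.59, 3.57, 4.29 and 10.8 in IGFRlox muscle and 45.8, 28.3 and 12.0 in IRIGFRlox muscle. Rps3a1 was at 16.0 to 32.1 (median 29.7) scaled CPM in QKO muscle, below the median of MIGIRKO muscle (log2 change -1.38 ± 0.34, edgeR adjusted p = 0.00292). The QKO and MIGIRKO libraries overlapped for Rps3a1, since the lowest MIGIRKO library was at 17.2. Within the 6 library runs, Rpl34 and Rpl3l were higher in QKO than in MIGIRKO muscle in all 6. Rps3a1 and Rpl3 were each lower in 5, with log2 differences of 0.33 and 0.19 in run 5. The level of Rps3a1 was 15.4 and 16.3 in Qlox muscle and 111, 87.6 and 109.8 in IRlox muscle, so the floxed groups themselves spanned 15.4 to 111 scaled CPM.

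**Figure D4:**
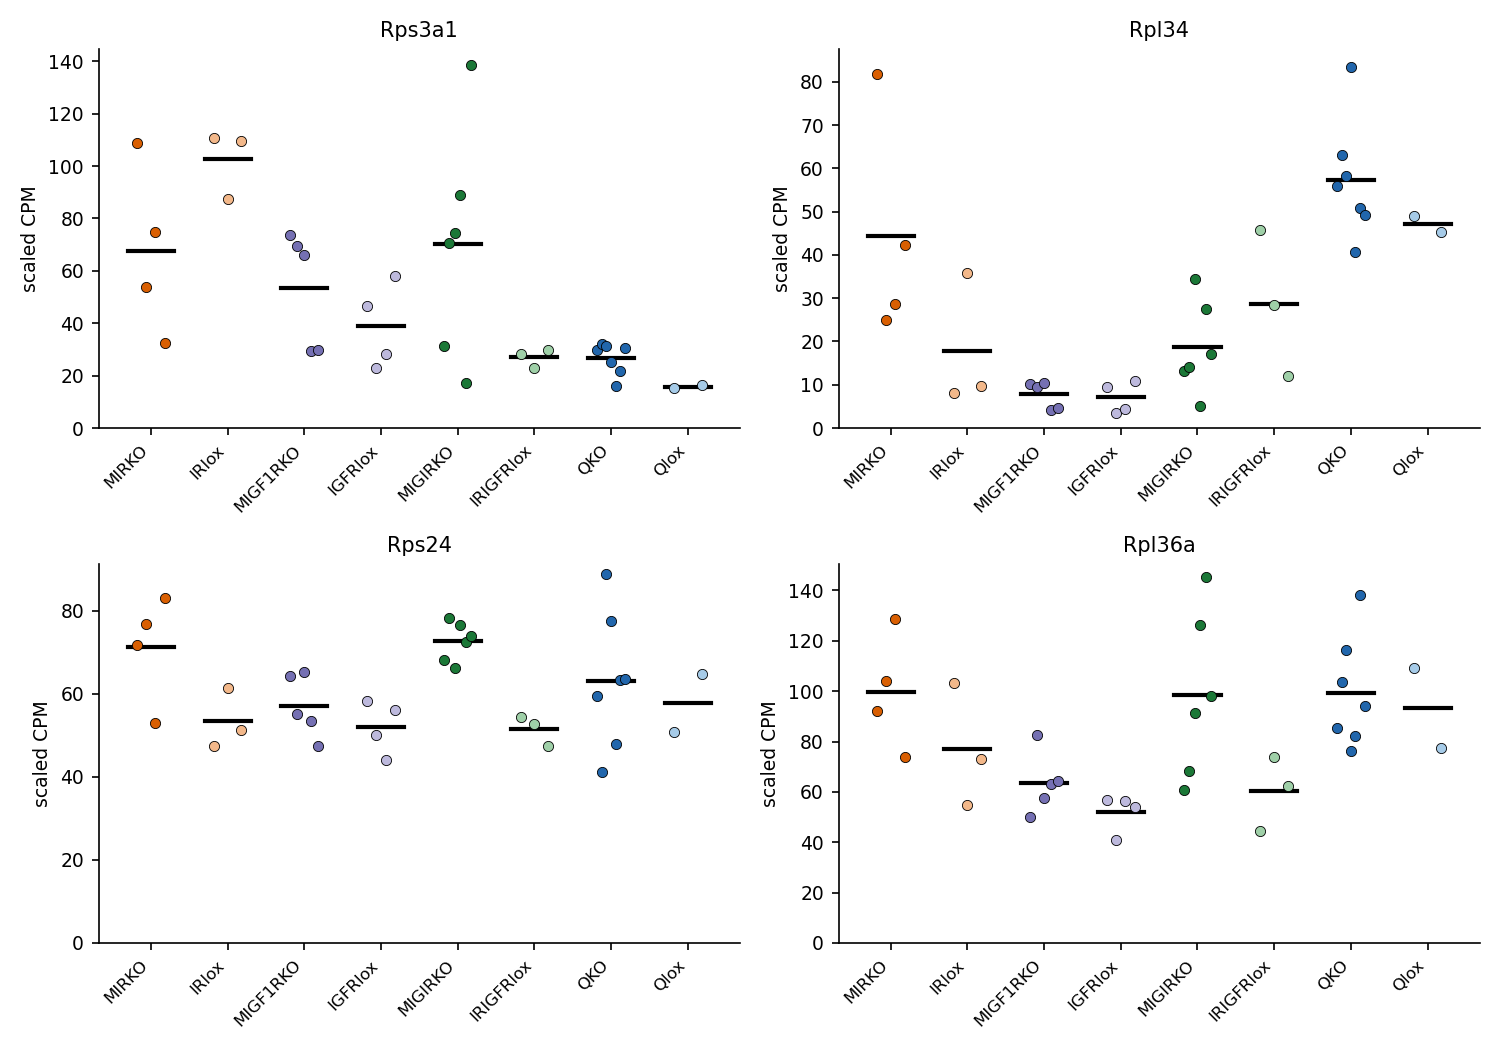
Scaled CPM of Rps3a1, Rpl34, Rps24 and Rpl36a in each library (points) with a bar at each group's mean. Rpl34 lies at 40.7 or above in all QKO and Qlox libraries and at 34.5 or below in all MIGIRKO libraries, and Rps24 separates the MIGIRKO libraries (66.3 to 78.2) from the IRIGFRlox libraries (47.5 to 54.3).

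Between QKO and MIGIRKO muscle, 2 members were called higher (Rpl3l and Rpl34), beside 16.2% of all genes, and 2 lower (Rps3a1 and Rpl3), beside 14% of all genes. The median log2 change of the 82 was -0.06, beside -0.03 over all genes, and 29 lay above 0. With library runs as a block, 2 were called higher and 5 lower, beside 18.1% and 15.8% of all genes, and the further genes were Rps14, Rps12 and Rps4x. With unscaled library totals the counts were 2 and 22, beside 5.53% and 43.2% of all genes, and the median of all genes moved to -0.41 and that of the members to -0.46. The lowest change among members not called was that of Rps14, at -0.56 ± 0.25 (edgeR adjusted p = 0.0873).

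Against Qlox muscle, no member was called in QKO muscle by edgeR, DESeq2 or limma-voom, where 0.506% of all genes were called. At an unadjusted p under 0.05, 22 were higher and 0 lower. The median log2 change was 0.67, beside 0.04 over all genes, and 78 of 82 lay above 0. The ends were 1.58 ± 0.70 for Rpl17 (edgeR adjusted p = 0.398) and 1.53 ± 0.76 for Rps26, and -0.93 ± 0.61 for Rpl24 and -0.28 ± 0.44 for Rpl21 (SE). Both Qlox libraries are from library runs 4 and 5, in which 75 of 82 members had lower means. With runs as a block the median was 0.09, and within runs 4 and 5, which hold 1 QKO and 1 Qlox library each, it was 0.09 and 0.27. The QKO change minus the MIGIRKO change had a median of 0.46, which was -0.30 with the block and 0.01 with unscaled totals.

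With only 1 receptor deleted, no ribosomal protein gene was called. In MIRKO against IRlox muscle, edgeR, DESeq2 and limma-voom called 0 of 82, where edgeR called 1.25% of all genes, and 3 members were higher and 1 lower at an unadjusted p under 0.05. The median log2 change was -0.05, beside 0.03 over all genes, and 35 of 82 lay above 0. The highest values were 1.33 ± 0.54 for Rpl34 and 0.80 ± 0.43 for Rpl21, and the lowest -0.75 ± 0.24 for Rpl3l and -0.61 ± 0.45 for Rps3a1. Without runs 4 and 5 the median was 0.36 and Rps6 (1.05, edgeR adjusted p = 0.027) and Rpl3 (1.09, adjusted p = 0.0419) were called higher. In that fit 118 of 13479 genes were called higher and 135 lower. Without the libraries labelled MIRKO 4 and MIGIRKO 6 the median was -0.34. In MIGF1RKO against IGFRlox muscle the same tools called 0 of 82, where edgeR called 0.616% of all genes, and 6 were higher and 1 lower at an unadjusted p under 0.05. The median was 0.23, beside 0.00 over all genes, with 70 above 0. The ends were 1.46 ± 0.65 for Rpl39 and 1.01 ± 0.48 for Rps13, and -0.95 ± 0.30 for Rps14 (edgeR adjusted p = 0.159) and -0.37 ± 0.25 for Rpl12. The MIGIRKO change minus the MIRKO change called 0 members by the same 3 tools, where edgeR called 0% of all genes, and 1 was higher and 1 lower at an unadjusted p under 0.05: Rps3a1 at 1.99 ± 0.63 and Rpl34 at -1.98 ± 0.71. DESeq2 called 5 of 13646 genes higher and 34 lower in that contrast. The 0% of edgeR depended on the libraries labelled MIRKO 4 and MIGIRKO 6. Without them edgeR called 172 of 13466 genes higher and 285 lower.

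In the scaled fit of all libraries, without a block or pooled controls, edgeR called none of the remaining paralogs, the stalk and Rps6 in the 7 comparisons. With unscaled library totals Rplp0 and Rpl22l1 were called in MIGIRKO against IRIGFRlox muscle, where 46.3% of all genes were called higher. Under them Rplp0, Rplp1 and Rps6 were called in QKO against MIGIRKO muscle, where 43.2% of all genes were called lower. With all 12 floxed libraries as control, Rplp0 and Rps6 were called in MIGIRKO muscle, where 3547 of 13646 genes were called higher and 2855 lower. Rpl22l1, a paralog of Rpl22, was at 42.6, 24.9, 19.7, 37.5 and 52.8 scaled CPM in MIGF1RKO muscle, against 14.1, 23.8, 28.8 and 25.8 in IGFRlox muscle (log2 change 0.61 ± 0.26, edgeR adjusted p = 0.394). The MIGF1RKO libraries at 24.9 and 19.7 scaled CPM lay inside the IGFRlox range. Rpl22l1 was called when all 12 floxed libraries served as controls (0.82, edgeR adjusted p = 0.0211), where 220 of 13646 genes were called higher and 120 lower. Against IGFRlox muscle its partner Rpl22 had a log2 change of -0.09 ± 0.18 in MIGF1RKO muscle. Rps27l, a paralog of Rps27, was low in every group, at 1.97 to 18.8 scaled CPM, and its largest value was 1.72 ± 0.93 in the QKO change minus the MIGIRKO change. Rpl7l1, a paralog of Rpl7, kept within 11.9 to 32.7 scaled CPM. Rpl36al stood at 2.62 to 17.3 scaled CPM. None of the 20 ratio tests on the Rpl22l1, Rps27l, Rpl36al and Rpl7l1 pairs had an adjusted exact permutation p under 0.649.

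Of the stalk, which recruits elongation factors to the large subunit, Rplp0 was at 372 to 563 (median 397) scaled CPM in MIGIRKO muscle, against 335, 404 and 277 in IRIGFRlox muscle (log2 change 0.33 ± 0.20, edgeR adjusted p = 0.208; 0.49 and 0.00624 in the fit blocked by run). Rplp1 had a log2 change of 0.26 ± 0.29 and Rplp2 of -0.17 ± 0.48 in that comparison, and neither passed the test. The lowest Rplp0 library of MIGIRKO muscle and the MIGIRKO median both lay inside the range of IRIGFRlox muscle. Rps6 was at 26.3 to 52.2 (median 39.1) scaled CPM in MIGIRKO muscle, against 37.1, 30.8 and 29.7 in IRIGFRlox muscle (log2 change 0.28 ± 0.34, edgeR adjusted p = 0.547; 0.53 and 0.0261 in the fit blocked by run), and these libraries overlapped. In QKO muscle Rps6 was at 13.1 to 47.6 (median 33.6) scaled CPM, against 23.0 and 27.3 in Qlox muscle. Neither Fau nor Rack1 was called in any comparison, and the largest value was 1.82 ± 0.81 for Fau in QKO against Qlox muscle (edgeR adjusted p = 0.398).

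Among elongation factor genes, Eef1a1 rose and Eef1a2 fell in MIGIRKO muscle. Eef1a2 is the form of the factor that delivers aminoacyl-tRNA in adult muscle and neurons, and Eef1a1 is the form of most other cells. Eef1a1 was at 1292 to 2375 (median 1886) scaled CPM in MIGIRKO muscle, against 328, 406 and 414 in IRIGFRlox muscle (log2 change 2.33 ± 0.33, edgeR adjusted p = 4.52e-06). Eef1a2 was at 255 to 534 (median 406) scaled CPM in MIGIRKO muscle, against 964, 1055 and 871 in IRIGFRlox muscle (log2 change -1.30 ± 0.21, edgeR adjusted p = 2.57e-05). Neither gene's libraries overlapped. In QKO muscle Eef1a1 was at 444 to 1546 (median 519) scaled CPM, against 416 and 521 in Qlox muscle, and Eef1a2 at 478 to 1044 (median 887), against 729 and 843. The QKO and MIGIRKO changes differed by -1.62 ± 0.44 for Eef1a1 (edgeR adjusted p = 0.0262) and by 1.40 ± 0.34 for Eef1a2 (edgeR adjusted p = 0.0127). These calls were lost in 3 and 2 of 18 fits that left out 1 library (highest adjusted p 0.174 and 0.114), and that of Eef1a2 in the fit blocked by run (0.96, adjusted p = 0.0649). In MIRKO muscle Eef1a1 rose (1.24 ± 0.33, edgeR adjusted p = 0.0482) and Eef1a2 did not pass (-0.57 ± 0.23, edgeR adjusted p = 0.208). The call of Eef1a1 was lost in 5 of 7 fits that left out 1 library (0.90 to 1.38, highest adjusted p = 0.245), when the libraries labelled MIRKO 4 and MIGIRKO 6 were dropped (0.90, adjusted p = 0.209) and with the block (1.11, adjusted p = 0.117). Of the 16 genes of elongation factors and other TOP mRNAs, 3 rose in MIGIRKO muscle (Eef1a1, Pabpc1 and Hnrnpa1) and 1 fell, with a median log2 change of 0.00, where 17% of all genes were called higher and 16.7% lower. Of these, Hnrnpa1 lost its call in 7 of 9 fits that left out 1 library (highest adjusted p = 0.26) and Pabpc1 in 3 of 9 (0.0964).

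Genes that build ribosomes were also counted. Of 46 ribosome biogenesis genes tested, 3 rose and 4 fell in MIGIRKO muscle, with a median log2 change of -0.04, beside 0.04 over all genes, of which 17% were called higher and 16.7% lower. Myc, a transcription factor that raises ribosome production, rose to 7.61 to 24.9 (median 12.7) scaled CPM in MIGIRKO muscle, against 1.98, 3.44 and 3.64 in IRIGFRlox muscle (log2 change 2.22 ± 0.38, edgeR adjusted p = 5.45e-05), without overlap. Npm1, a nucleolar chaperone, rose by 0.53 ± 0.18, a call lost in 2 of 9 fits that left out 1 library (highest adjusted p = 0.0986). Rrn3, the initiation factor of RNA polymerase I, fell (log2 change -0.50 ± 0.12, but -0.0064 with unscaled library totals), as did Wdr12, of the large subunit assembly complex (-0.36 ± 0.12, but 0.13 with unscaled library totals). Between QKO and MIGIRKO muscle 4 were higher and 1 lower, with Rrn3 at 0.47 ± 0.10 and Myc at -0.74 ± 0.26 (edgeR adjusted p = 0.0307), beside 16.2% and 14% of all genes. The call of Myc was lost in 6 of 13 fits that left out 1 library (-0.87 to -0.49, highest adjusted p = 0.144).

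Regulators of translation were counted in the same way, where 17% of all genes were called higher and 16.7% lower in MIGIRKO muscle. Of 22 genes of mTORC1 and S6 kinase signalling, 2 rose and 5 fell (median -0.23). The elongation factor 2 kinase Eef2k fell by a log2 value of 1.22 (edgeR adjusted p = 3.96e-07), the TOP mRNA regulator Larp1 changed by -0.57 ± 0.14 (adjusted p = 0.00221) and the S6 kinase Rps6kb1 by -0.55 ± 0.15 (adjusted p = 0.00531). Unscaled library totals moved the median of all genes from 0.04 to 0.53, a shift close in size to the falls of Larp1 and Rps6kb1. The translation repressor Eif4ebp1 rose (0.91 ± 0.28, edgeR adjusted p = 0.0117) and its relative Eif4ebp2 fell (-0.71 ± 0.12, adjusted p = 6.05e-05). Of 31 initiation factor genes 2 rose and 7 fell (median -0.18), among them the scaffold Eif4g1 (-0.61 ± 0.13) and the cap-binding Eif4e (-0.59 ± 0.14). With unscaled library totals neither passed (-0.12 and -0.10). Between QKO and MIGIRKO muscle 12 initiation genes were higher and 0 lower (edgeR, with 1 lower at an unadjusted p under 0.05, and 12 called by DESeq2 and by limma-voom), beside 16.2% and 14% of all genes, with Eif4e at 0.72 ± 0.11. In QKO against Qlox muscle 1 initiation gene, Eif4g3, fell (-0.52 ± 0.12, edgeR adjusted p = 0.0449), and of the mTORC1 list Castor2, a relative of the arginine sensor Castor1 (-1.60 ± 0.13, adjusted p = 2.29e-10), Tsc1 and Sesn1 fell. Leaving out 1 library at a time ended the call of Eif4g3 in 8 of 9 fits (highest adjusted p = 0.527), of Tsc1 in 7 (0.511) and of Sesn1 in 6 (-1.49 to -0.55, 0.793), and that of Castor2 in 0.

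Proteins of the mitochondrial ribosome are encoded by other genes. Of 76 of them tested, 22 fell and 0 rose in MIGIRKO muscle (edgeR, with 0 higher at an unadjusted p under 0.05, 21 called by DESeq2 and 27 by limma-voom), with a median log2 change of -0.41, where 16.7% of all genes were called lower and 17% higher. The direction depended on scaling: with unscaled library totals, which moved the median of all genes to 0.53, Mrps11 (-0.15) and Mrpl4 (-0.10) did not pass and Mrpl45 (0.022) and Mrpl28 (0.011) turned. In the scaled fit Mrps11 changed by -0.65 ± 0.15 and Mrpl4 by -0.59 ± 0.14. Between QKO and MIGIRKO muscle, 22 were higher and 0 lower, beside 16.2% and 14% of all genes (median 0.34; 24 called by DESeq2 and 22 by limma-voom, with 0 lower at an unadjusted p under 0.05). In QKO against Qlox muscle edgeR, DESeq2 and limma-voom called 0, with 3 higher and 1 lower at an unadjusted p under 0.05, and a median of 0.18. Genes of denervated and embryonic muscle changed in MIGIRKO muscle, where 12 of 15 rose and 1 fell, and their summed level was 373 to 1414 scaled CPM, against 216 to 243 in IRIGFRlox muscle. That list holds Myog (3.27 ± 0.47) and Chrna1 (3.51 ± 0.63), and its part in the ribosomal changes was not tested.

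The level of the ribosomal protein genes differed between runs of library numbers. Over the 5 groups with libraries in runs 4 or 5 and in other runs, 75 of 82 members had a lower mean log2 CPM in runs 4 and 5, with a median difference of -0.72, beside 0.02 for all genes. The median difference was -1.18 for the 10 members with mRNAs under 500 bases, -0.88 for 18 of 500 to 750 bases, -0.73 for 23 of 750 to 1000, -0.53 for 25 of 1000 to 2000 and -0.49 for the 6 longer ones. For the other genes of the same length classes it was -0.21, -0.39, -0.34, -0.12 and 0.06. Over the 82 members, the Spearman rank correlation of the difference was 0.22 with mRNA length and 0.54 with mean log2 CPM. What the runs stand for is not given in the labels, and their part in the differences between groups was measured only by the block and the within-run values above.

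**Figure D5:**
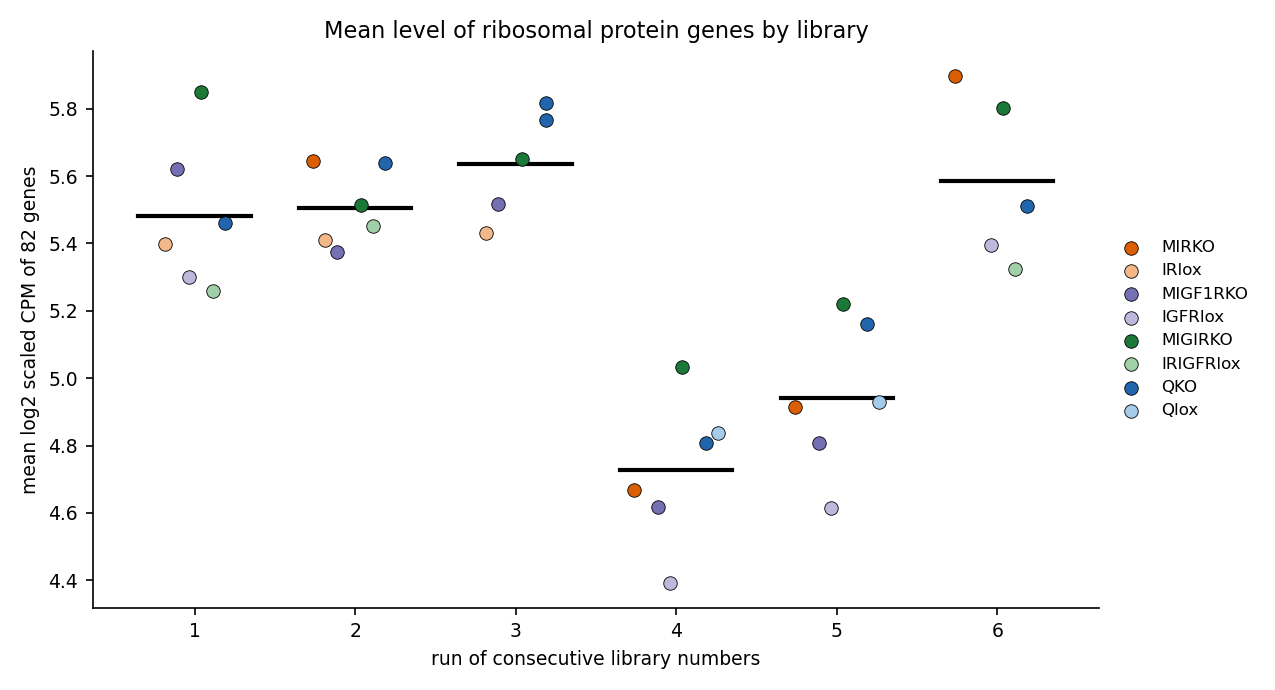
Mean log2 scaled CPM of the 82 genes in each library (points, by genotype) against the run of consecutive library numbers, with a bar at each run's mean. Runs 4 and 5 lie lowest, at 4.73 and 4.94, and hold both Qlox libraries.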

How the data were processed

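Total RNA from 34 muscle samples was sequenced with a stranded kit. The deposited table holds raw counts per gene that the authors made with STAR and featureCounts on GRCm38.p4, per the submitters' processing notes. Versions, the strand setting and the treatment of multi-mapped reads are not given in the sources used here, so reads of overlapping or antisense genes cannot be told apart. Totals ran from 1499025 to 7581198 counts, and short or low members carry the most counting error. GENCODE M21 gave symbols to 45229 of 46071 rows.

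All 34 libraries entered 1 fit with edgeR 4.0.16 in R 4.3.3: trimmed-mean scaling, the filterByExpr filter (13646 genes kept), the robust quasi-likelihood test and Benjamini-Hochberg adjustment over all genes tested, with calls at an adjusted p under 0.05. The SE is the log2 change over the root of its F. Differences between changes are interaction contrasts. Ratios were tested by exact permutation over libraries. DESeq2 1.42.0, limma-voom 3.58.1, other scalings, filters and controls, a block for library runs, and leaving out libraries were the alternatives. The test was checked on simulated data.

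Labels give each sample its genotype but not its animal, so p-values measure the spread between these samples, which may be technical. The members and lists were chosen with earlier results of these data known. Named were up to 8 called members per direction and comparison, the paralogs and their partners, the stalk, Rps6, the 2 highest and 2 lowest changes, the 5 highest and 5 lowest levels, up to 4 called genes of each other list by smallest p, and the targeted genes. Genes of the variance ranking and of the block calls, and further genes of the other lists, were named after their values were seen. Columns were matched to samples by name.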

Additional observations from a re-analysis of the deposited data

Results flagged for a closer look

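The log2 ratio of Rpl3l to Rpl3 in MIGIRKO 2 was 1.89, apart from the other 5 MIGIRKO libraries, the nearest of which was at 1.10. Its Rpl3l share of the Rpl3 and Rpl3l pool per mRNA length was 78.5%, where the nearest MIGIRKO library was at 67.9%. In QKO 6 that share was 67.6%, below the other 6 QKO libraries, which lay between 83.1% and 93.2%. A gap test at the 95% level (Dixon) singled out these 3 values among 50 groups of values tested, and chance alone gives about 1 in 20. The ratio and the share come from the same counts of Rpl3l and Rpl3, so those of MIGIRKO 2 are not separate observations. The 50 tests are therefore not independent. The change of Rpl3l in QKO mice relative to Qlox mice differed from that in MIGIRKO mice relative to IRIGFRlox mice by 1.22 on the log2 scale (edgeR interaction contrast, adjusted p = 0.0304), a difference between colonies that is given with its alternatives in the text above.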

How the results depend on the processing

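No paired analysis was possible because littermate pairs are not named in the labels and replicate numbers here follow accession order. The number of members called in MIGIRKO against IRIGFRlox muscle was 5 and became 34 with unscaled library totals, 2 with no filter, 23 with library runs as a block, 20 with all 12 floxed libraries as control, 3 with only the compared groups fitted and 10 without library runs 4 and 5. Over all genes, 3547 of 13646 were called higher and 2855 lower in MIGIRKO muscle with all 12 floxed libraries as control. The counts were 1762 and 2031 of 29246 with no filter, and 2103 and 2128 of 12931 with only the compared groups fitted. They were 2039 and 1934 of 13479 without library runs 4 and 5. In QKO against MIGIRKO muscle the number of members called was 4 and became 24 with unscaled totals and 7 with the block. The single call in the QKO change minus the MIGIRKO change became 0 with unscaled totals and 0 with only the compared groups fitted. With all 12 floxed libraries as control, 6 were called in MIRKO, 1 in MIGF1RKO and 5 in QKO muscle. With those controls 1632 of 13646 genes were called higher and 1395 lower in MIRKO muscle. The counts over all genes were 220 and 120 in MIGF1RKO muscle and 740 and 455 in QKO muscle. Without runs 4 and 5, 2 members were called in MIRKO muscle, beside 118 of 13479 genes higher and 135 lower. Leaving out 1 library at a time gave 2 to 6 calls in MIGIRKO against IRIGFRlox, 3 to 4 in QKO against MIGIRKO, 0 to 1 in the QKO change minus the MIGIRKO change, and 0 to 0 in the other 4 comparisons.

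The members' median log2 change moved to 0.71 (MIGIRKO against IRIGFRlox), -0.46 (QKO against MIGIRKO) and 0.01 (QKO change minus MIGIRKO change) with unscaled totals, to 0.09 (QKO against Qlox) and -0.30 (QKO change minus MIGIRKO change) with the block, to 0.35 (QKO) with 12 floxed controls and to 0.36 (MIRKO) without runs 4 and 5. Unscaled totals moved the median of all genes to 0.53 in MIGIRKO against IRIGFRlox and to -0.41 in QKO against MIGIRKO. Under them Wdr12 (0.13), Mrpl45 (0.022) and Mrpl28 (0.011) reversed in MIGIRKO against IRIGFRlox, and Wdr12 (-0.0065), Polr1a (-0.0155), Eif4ebp2 (-0.032), Nap1l1 (-0.0058), Eif4b (-0.031) and Mrpl45 (-0.053) in QKO against MIGIRKO. The cause of these moves was not tested. Leaving out 1 library moved the log2 ratio of Rpl3l to Rpl3 between -1.73 and -1.12 (MIRKO), -0.31 and -0.17 (MIGF1RKO), -2.86 and -2.58 (MIGIRKO), -0.63 and -0.18 (QKO against Qlox) and 1.72 and 2.17 (QKO against MIGIRKO), and no ratio changed direction.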
